A study of Mus musculus with 6 samples.

Results

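A set of 10 genes of the antiviral arm of the interferon response was followed in mouse vascular smooth muscle cells, which form the contractile layer of arteries, after knockdown of Ezh2. They were taken by symbol and comprise the 4 IFIT genes Ifit1, Ifit2, Ifit3 and Ifit3b, the genes Isg15, Usp18, Uba7 and Herc6 of the ISG15 modifier pathway, and the membrane-associated antiviral genes Rsad2 and Bst2. All 10 were present, each under 1 identifier, among the 27502 genes listed for every sample. The cells came from aorta and were grown in culture. The 6 samples form 2 groups of 3. One group carried short interfering RNA against Ezh2 (siEzh2), the other served as control, and the time was 48 hours in both. The labels give neither the strain, age or sex of the mice, nor the siRNA sequences, nor what the control cells received. Separate cultures or animals within a group are not stated either, so a p-value here measures spread among these samples alone, possibly technical.

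Interferon-stimulated genes are switched on when type I or type III interferon engages its receptor and a transcription factor complex that contains STAT2 and IRF9 binds a DNA element called the interferon-stimulated response element (ISRE). IFIT proteins bind viral RNA or act with those that do, ISG15 is a ubiquitin-like protein that is attached to other proteins by a chain of enzymes, and viperin and tetherin, the products of Rsad2 and Bst2, act at membranes against viral replication and release. Many of these genes keep a low level in cells that have met no virus. Ezh2 encodes the methyltransferase of Polycomb repressive complex 2, which methylates histone H3 at a lysine tied to gene silencing.

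The DNA just before the start of these genes is shown first. RefSeq (GRCm38.p6) gave the window before the start for 9 of the 10 genes, all but Usp18. Each line holds the last 160 bases before the start, written 5′ to 3′ on the strand of the gene, with capitals for matches to the core of the ISRE, TTTCNNTTTC or GAAANNGAAA on the other strand, where N is any base. The windows of Ifit3b and Herc6 are not printed. The first 5 genes were called higher in siEzh2 samples, the last 2 were not called in either direction. A link between motif and call was not tested.
Isg15 (chr4:156200819-156200978, minus strand): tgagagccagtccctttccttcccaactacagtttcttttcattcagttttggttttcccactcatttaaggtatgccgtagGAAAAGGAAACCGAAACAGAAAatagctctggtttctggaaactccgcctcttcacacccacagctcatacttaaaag
Ifit1 (chr19:34640729-34640888, plus strand): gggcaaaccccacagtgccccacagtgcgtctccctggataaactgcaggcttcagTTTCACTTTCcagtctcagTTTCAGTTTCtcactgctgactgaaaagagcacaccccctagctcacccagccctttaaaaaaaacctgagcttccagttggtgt
Ifit3 (chr19:34583369-34583528, plus strand): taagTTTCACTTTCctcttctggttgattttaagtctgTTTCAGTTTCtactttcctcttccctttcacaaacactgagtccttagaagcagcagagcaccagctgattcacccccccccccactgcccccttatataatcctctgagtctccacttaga
Bst2 (chr8:71537473-71537632, minus strand): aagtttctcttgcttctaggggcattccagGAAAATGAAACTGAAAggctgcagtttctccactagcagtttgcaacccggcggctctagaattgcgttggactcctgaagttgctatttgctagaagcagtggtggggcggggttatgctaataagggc
Rsad2 (chr12:26456453-26456612, minus strand): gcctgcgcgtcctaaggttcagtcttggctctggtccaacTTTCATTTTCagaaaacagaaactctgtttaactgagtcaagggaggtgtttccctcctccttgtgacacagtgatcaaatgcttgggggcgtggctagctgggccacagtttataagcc
Ifit2 (chr19:34550534-34550693, plus strand, the first of its 2 RefSeq starts): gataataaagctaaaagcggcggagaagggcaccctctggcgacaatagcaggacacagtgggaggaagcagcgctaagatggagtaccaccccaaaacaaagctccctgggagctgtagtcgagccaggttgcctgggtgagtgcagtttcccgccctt
Uba7 (chr9:107975407-107975566, plus strand): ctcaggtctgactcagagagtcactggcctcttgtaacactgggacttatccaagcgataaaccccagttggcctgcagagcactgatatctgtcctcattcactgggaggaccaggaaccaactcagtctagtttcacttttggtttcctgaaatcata

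In the full 250 bases before the start, 6 of the 9 genes held the ISRE core on either strand. Isg15 had 3 overlapping matches, at 78, 72 and 66 bases before the start, and Bst2 had 2 overlapping ones at 130 and 124. Ifit1 had matches at 104 and 85 bases, Ifit3 at 156 and 122, Ifit3b at 188 and 154, and Rsad2 at 120. The core occurred in 978 of 32851 RefSeq windows of this length (2.98%), and 59 windows (0.18%) held 2 or more. Ifit2, at both of its starts, and Uba7 and Herc6 had no match to these letters in this window, which says nothing of elements elsewhere or of variants of the motif. A second element, the interferon gamma-activated site TTCNNNGAA, which reads the same on both strands, occurred in 7.02% of windows, among them those of Ifit2 (241 bases before the first start) and Bst2 (136 bases, overlapping its ISRE core). A match is a stretch of letters, and binding was not measured.

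**Figure D1:**
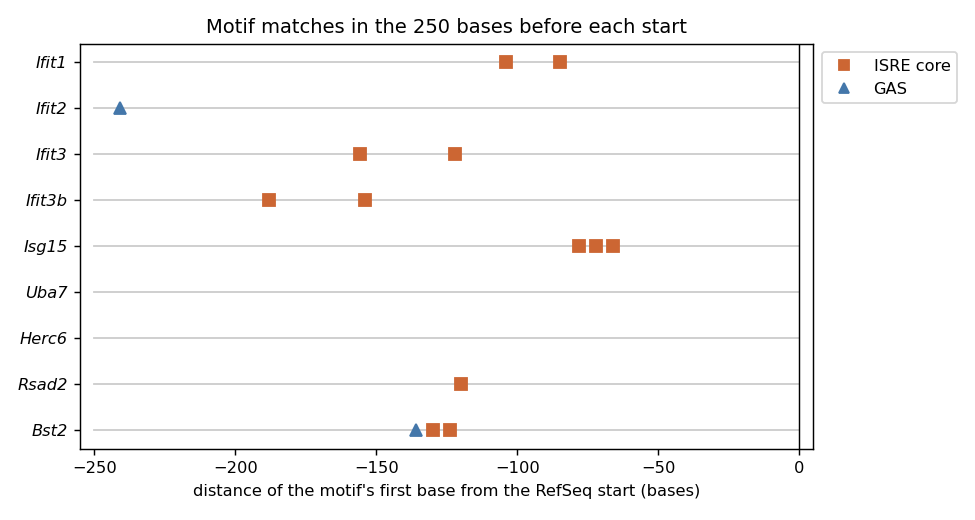
Motif matches in the 250 bases before the RefSeq start of 9 genes, with the distance from the start in bases on the horizontal axis, squares for the ISRE core and triangles for the interferon gamma-activated site. Ifit1, Ifit3, Ifit3b, Isg15, Rsad2 and Bst2 carry 1 to 3 ISRE cores, while Ifit2 (first start shown), Uba7 and Herc6 carry none in this window.

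The comparison asks which of the 10 transcripts differed between siEzh2 and control samples. Values are FPKM, fragment counts scaled by gene length and by library size. In all, 7 genes, Ifit1, Ifit3, Ifit3b, Isg15, Usp18, Rsad2 and Bst2, rose after knockdown, by 2.26 to 8.65 times in mean FPKM. Ifit2 and Uba7 were tested and not called, and Herc6 lay below the 1 FPKM needed for the test. A gene was called at an adjusted p under 0.05 (limma across 11869 genes), and changes are given on log2(FPKM + 1), a scale that understates those of low genes. Over all tested genes 24.1% were called higher and 22.7% lower, at a median log2 fold change of 0.01. None of the 10 genes was called lower by limma, and none of the 9 tested had an unadjusted p under 0.05 in that direction. Rsad2 entered the test only through its siEzh2 level and had to differ to do so, so the count rests on the other 8 tested genes, of which 6 were called higher. Ifit3 and Ifit3b, both among these 6, share much of their sequence, so their separate values are uncertain. The shares over all tested genes include genes that entered the test through 1 group alone. In these bulk samples more cells expressing a gene and more RNA per cell cannot be told apart.

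Ezh2 itself had 3.41, 3.59 and 3.88 FPKM in control samples 1 to 3 and 1.20, 1.09 and 1.05 FPKM in siEzh2 samples 1 to 3, so the labels and the transcript went together. Reads recovered from the FPKM values summed to 16080040 to 18753183 per sample, lowest in siEzh2 sample 1. Of the 7 smooth muscle markers, Acta2 had 699 ± 14.8 FPKM in control samples (SD, n = 3), Lmod1 16.8 ± 0.127 and Smtn 13.4 ± 0.252. Myh11 (1.83 ± 0.149), Myocd (1.57 ± 0.0252) and Cnn1 (1.14 ± 0.203) lay between 1 and 2 FPKM, and Tagln was below 1 FPKM (0.253 ± 0.0865).

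The IFIT family is read first. Ifit1, which binds RNA whose ends lack the host's cap modifications, stood at 3.48, 3.73 and 3.85 FPKM in control samples 1 to 3 and at 13.2, 12.1 and 11.9 FPKM in siEzh2 samples 1 to 3, the order used from here on. Each siEzh2 sample stood above each control sample by a wide margin. The mean level went from 3.69 ± 0.188 to 12.4 ± 0.697 FPKM (SD, n = 3 each), 3.35 times, and the log2 fold change was 1.51 (SE 0.0528, adjusted p = 3.57e-05), rank 17 from the top. It rests on 545 control reads and 1673 siEzh2 reads.

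Ifit3, an IFIT protein that pairs with other members of the family, had 14.7, 15 and 13.9 FPKM in control and 35.8, 32.5 and 31.0 FPKM in siEzh2 samples. The groups did not overlap, and the mean rose 2.28 times from 14.5 ± 0.564 to 33.1 ± 2.43 FPKM (SD, n = 3 per group, log2 fold change 1.13, adjusted p = 8.67e-05). Ifit3b, a nearby copy of Ifit3, had 2.38, 2.72 and 2.34 FPKM in control and 6.93, 5.21 and 4.71 FPKM in siEzh2 samples, again without overlap but with siEzh2 sample 1 well above the other two. Its log2 fold change was 0.91 (SE 0.124, adjusted p = 0.00183). Of all 50-base stretches in the Ifit3 transcripts, 51.2% also occur in another gene, Ifit3b, so reads could have been split between them and their separate values are uncertain. Summed over both, the level was 17.0 ± 0.738 FPKM in control and 38.7 ± 3.59 FPKM in siEzh2 samples (SD, n = 3 each), 2.27 times higher.

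Ifit2, whose protein also binds RNA, was not called. It had 9.17, 8.48 and 9.96 FPKM in control and 8.97, 8.28 and 8.69 FPKM in siEzh2 samples, and the groups overlapped. The means were 9.20 ± 0.740 and 8.65 ± 0.352 FPKM (SD, n = 3 each). The log2 fold change was -0.08, with a 95% confidence interval from -0.23 to 0.07 (adjusted p = 0.332), so a rise like that of Ifit1 or Ifit3 lay far outside the interval. Depth was ample, with 2009 reads over the control and 1732 over the siEzh2 samples, and no 50-base stretch of its transcripts occurs in another gene.

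Ratios within a sample set the family members against each other. Ifit2 stood at 0.625, 0.564 and 0.715 of the Ifit3 level in control samples 1 to 3, and at 0.251, 0.254 and 0.280 in siEzh2 samples 1 to 3. In control samples Ifit2 had 2.27 to 2.63 times the level of Ifit1, and in siEzh2 samples 0.682 to 0.733 times, so the order of the pair turned over. Ifit1 stood at 0.254 ± 0.0204 of the Ifit3 level in control samples, against 0.374 ± 0.00758 after knockdown (SD, n = 3 each). The share of Ifit3b relative to Ifit3 stayed within its spread, at 0.170 ± 0.00953 and 0.169 ± 0.0222 (SD, n = 3 each, p = 0.9, exact two-sided permutation test, adjusted p = 0.9 over 6 ratios). Because reads could have been split between these copies, that ratio cannot show whether both genes moved alike. For the Ifit2 to Ifit3, Ifit2 to Ifit1 and Ifit1 to Ifit3 ratios the groups did not overlap, and the exact two-sided permutation p was 0.1, the smallest that 3 samples against 3 can give (adjusted p = 0.12 over 6 ratios).

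**Figure D2:**
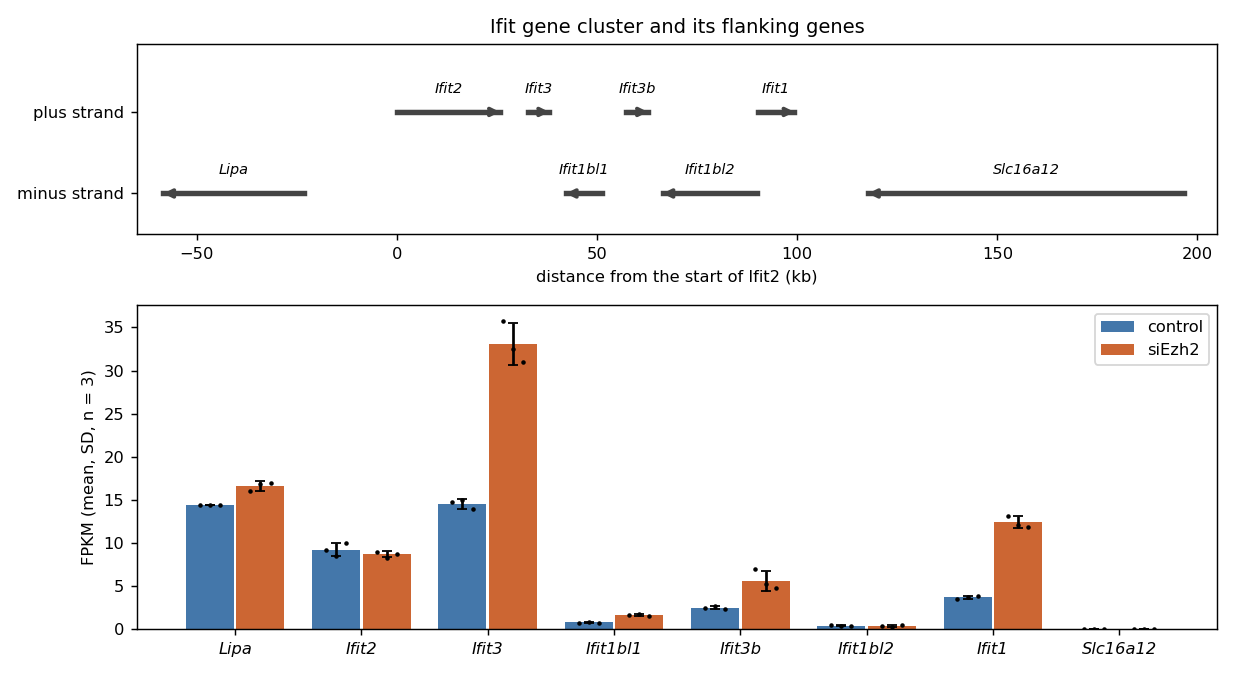
The Ifit cluster with arrows pointing in the direction of transcription, at distances in kb from the start of Ifit2 (top), and the FPKM of the same genes as bars of the mean with SD (n = 3) and a point for each sample (bottom). Ifit3, Ifit1bl1, Ifit3b and Ifit1 stand higher in siEzh2 samples, while Ifit2 at the edge of the cluster and Ifit1bl2 within it overlap between groups.

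These genes sit together on chromosome 19 (GENCODE M21, mm10), in the order Ifit2 (34550694 to 34576419), Ifit3 (34583531 to 34588731), Ifit1bl1 (34592891 to 34601956), Ifit3b (34607970 to 34613401), Ifit1bl2 (34617049 to 34640743) and Ifit1 (34640871 to 34650009), within 99.3 kb. Ifit1bl1, an Ifit1-like gene on the minus strand, had 0.703, 0.801 and 0.739 FPKM in control and 1.62, 1.69 and 1.55 FPKM in siEzh2 samples (log2 fold change 0.58, adjusted p = 1.54e-04), and it entered the test only through the siEzh2 samples. Ifit1bl2, which starts head to head with Ifit1 at a distance of 127 bases, had 0.455, 0.316 and 0.320 FPKM in control and 0.369, 0.270 and 0.495 FPKM in siEzh2 samples, below the filter and overlapping. Its counts were 68 and 65 reads per group, against the 545 and 1673 reads of Ifit1. Both ISRE cores of the Ifit1 window shown above lie in the 127 bases between the starts of this pair. The flanking gene Lipa, lysosomal acid lipase, 23219 bases from Ifit2, rose by only 0.19 on the log2 scale (adjusted p = 0.00654), from 14.4 ± 0.0202 to 16.6 ± 0.533 FPKM (SD, n = 3 each).

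Within the ISG15 pathway Isg15 and Usp18 were called higher and Uba7 was not. Isg15, the modifier itself (chromosome 4, 156199424 to 156200818), had 17.0, 16.0 and 15.4 FPKM in control and 47.4, 41.0 and 41.6 FPKM in siEzh2 samples. All siEzh2 samples stood above all control samples, and the mean was 16.1 ± 0.797 FPKM in control and 43.3 ± 3.54 FPKM in siEzh2 samples (SD, n = 3 per group), a ratio of 2.69 (log2 fold change 1.37, SE 0.0675, adjusted p = 6.80e-05). Usp18, the protease that removes ISG15 from its targets and also restrains signalling at the interferon receptor (chromosome 6, 121245906 to 121270917), had 2.04, 2.0 and 2.05 FPKM in control and 6.31, 6.96 and 5.70 FPKM in siEzh2 samples. Its control values lay within a narrow band, and its mean rose 3.11 times (log2 fold change 1.27, SE 0.0645, adjusted p = 7.72e-05). An antisense gene, Gm44148, covers 4.44% of the Usp18 exon bases, and the sources used here do not say whether reads were counted by strand.

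Uba7, the enzyme that activates ISG15 in the first step of conjugation (chromosome 9, 107975505 to 107984060), had 1.71, 1.80 and 1.85 FPKM in control and 1.90, 2.35 and 1.91 FPKM in siEzh2 samples. Every siEzh2 sample lay above every control sample, as in 30.0% of all tested genes, but siEzh2 samples 1 and 3 only just did. The means were 1.79 ± 0.0715 and 2.06 ± 0.253 FPKM (SD, n = 3 each), and the log2 fold change of 0.13 was not called (95% confidence interval -0.03 to 0.28, adjusted p = 0.142). Herc6, a ligase that attaches ISG15 in mouse cells (chromosome 6, 57581000 to 57664632), was low throughout, with 0.348, 0.304 and 0.365 FPKM in control and 0.602, 0.521 and 0.427 FPKM in siEzh2 samples. Its groups did not overlap, over 175 and 244 reads, and its mean rose 1.52 times, but it lay below the filter. With no filter on low values its log2 fold change, on a scale that understates low genes, was 0.18 and not called (adjusted p = 0.0620). Another gene on the same strand, Gm45193, covers 13.7% of its exon bases.

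The same ratios were formed within this pathway. Uba7 stood at 0.101, 0.113 and 0.120 of the Isg15 level in control samples 1 to 3, and at 0.0402, 0.0573 and 0.0460 in siEzh2 samples 1 to 3, lower in every siEzh2 sample than in any control sample. The ratio of Usp18 to Isg15 was 0.126 ± 0.00637 in control samples, against 0.147 ± 0.0202 after knockdown (SD, n = 3 each), with the lowest siEzh2 sample (0.133037) just above the highest control sample (0.13288). For both ratios the exact two-sided permutation p was 0.1, the smallest this design can give (adjusted p = 0.12 over 6 ratios).

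The remaining enzymes of ISG15 conjugation were taken from a list of 5 genes, all tested. Of these, 2 were called higher, 0 lower and 3 were not called, with a median log2 fold change of 0.13. The share called higher over all tested genes was 24.1%, and with 5 genes a difference from it was not tested. Trim25, which can attach ISG15, went from 8.55 ± 0.412 to 15 ± 1.32 FPKM (SD, n = 3 per group, log2 fold change 0.74, adjusted p = 4.95e-04). Ube2l6, the conjugating enzyme that takes ISG15 over from Uba7, went from 21 ± 1.09 to 28.8 ± 0.881 FPKM (SD, n = 3 per group, log2 fold change 0.44, adjusted p = 9.03e-04). Ube2e1, a ubiquitin-conjugating enzyme, had a log2 fold change of 0.13 (adjusted p = 0.194) and was called only when control sample 2 was left out (adjusted p = 0.0469).

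Rsad2 and Bst2 had the lowest and the highest level of the 10 genes in control samples. Rsad2 encodes viperin, an enzyme that makes a chain-terminating nucleotide (chromosome 12, 26442746 to 26456452). It had 0.164, 0.184 and 0.236 FPKM in control and 1.91, 1.73 and 1.42 FPKM in siEzh2 samples, from near silence to a low level in each. The mean rose 8.65 times, over 47 control and 372 siEzh2 reads, the largest ratio of the 10 genes. On log2(FPKM + 1) this is 1.16 (SE 0.0722, adjusted p = 1.19e-04), and the value was 2.60 with a pseudocount of 0.1 FPKM and 3.07 by limma-voom on recovered reads. The neighbouring gene Cmpk2, a nucleotide kinase at 12751 bases from Rsad2 and also interferon-stimulated, had 0.513, 0.563 and 0.414 FPKM in control and 3.08, 2.58 and 2.17 FPKM in siEzh2 samples (log2 fold change 1.26, adjusted p = 2.22e-04). On the other side Rnf144a, a ubiquitin ligase, was below the filter at 0.728 ± 0.0648 and 0.533 ± 0.103 FPKM (SD, n = 3 each).

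Bst2 encodes tetherin, which holds budding virions on the cell surface (chromosome 8, 71534255 to 71537456). It had 42.9, 41.5 and 43.1 FPKM in control and 172, 147 and 142 FPKM in siEzh2 samples. The control values lay close together and all siEzh2 values were more than 3 times as high. The log2 fold change was 1.82 (SE 0.0755, adjusted p = 4.21e-05), rank 8 from the top of all tested genes. Mvb12a, the nearest protein-coding gene on the higher-coordinate side at 5465 bases, was not called (log2 fold change -0.11, adjusted p = 0.146).

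**Figure D3:**
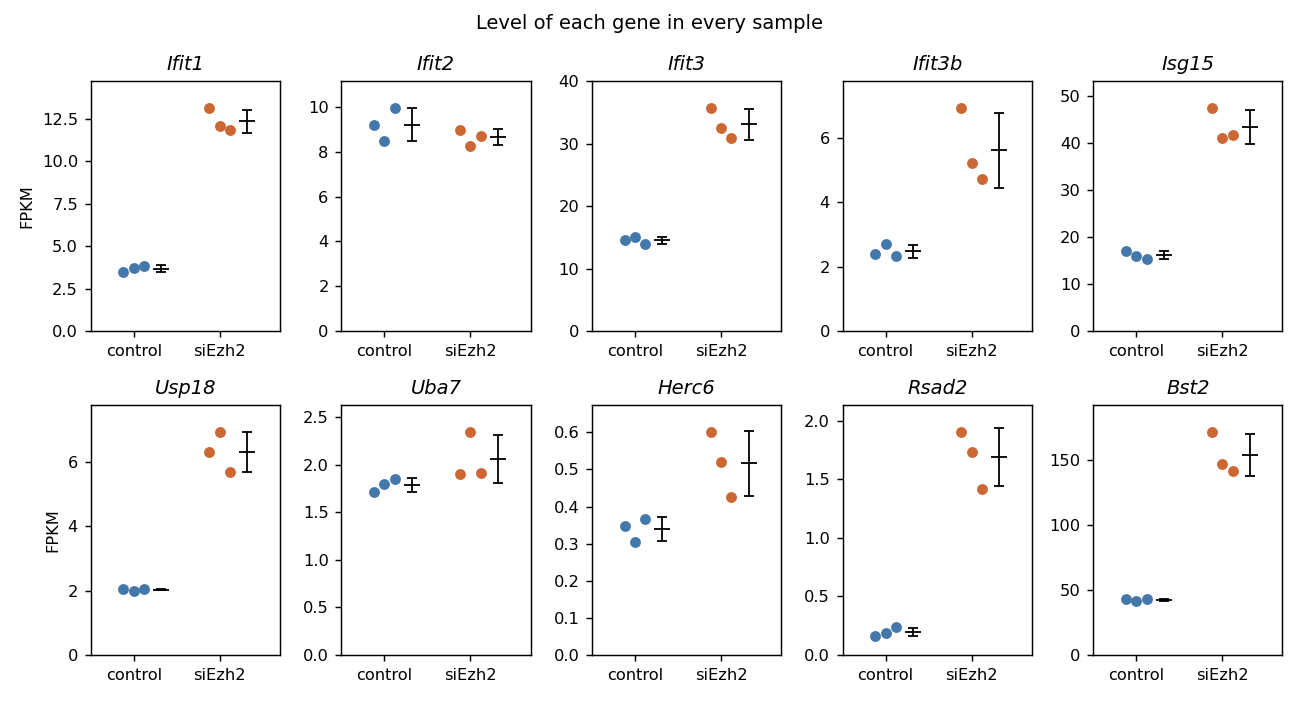
FPKM of the 10 genes in each sample, with 1 panel per gene, axes from 0, points for samples 1 to 3 from left to right in each group, and bars for the mean and SD (n = 3). Ifit2 overlaps between groups, Uba7 (not called) and Herc6 (not tested) do not overlap (1.15 and 1.52 times in mean FPKM), and the other 7 stand clearly apart. Over all tested genes 30.0% had every siEzh2 sample above every control sample.

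The 10 genes spanned a wide range of levels, which FPKM lets one compare per length. In control samples the order of mean level ran Bst2, Isg15, Ifit3, Ifit2, Ifit1, Ifit3b, Usp18, Uba7, Herc6 and Rsad2, with no overlap between neighbours in that order. In siEzh2 samples it ran Bst2, Isg15, Ifit3, Ifit1, Ifit2, Usp18, Ifit3b, Uba7, Rsad2 and Herc6, and there Usp18 and Ifit3b overlapped, as did Uba7 and Rsad2. The summed level of the 10 genes was 91.7 to 93.9 FPKM in control and 249 to 295 FPKM in siEzh2 samples. Of the 3 siEzh2 samples, sample 1 was the highest for 8 of the 10 genes and sample 2 for Usp18 and Uba7. Sample 1 also had the fewest reads, and the noncoding RNA Gm23935 was at 14073 FPKM there against 7576 and 8709 in the other two. The part of depth or of that RNA in the higher values was not tested. Without that sample all 7 genes were still called, with log2 fold changes between 0.78 (Ifit3b) and 1.74 (Bst2).

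**Figure D4:**
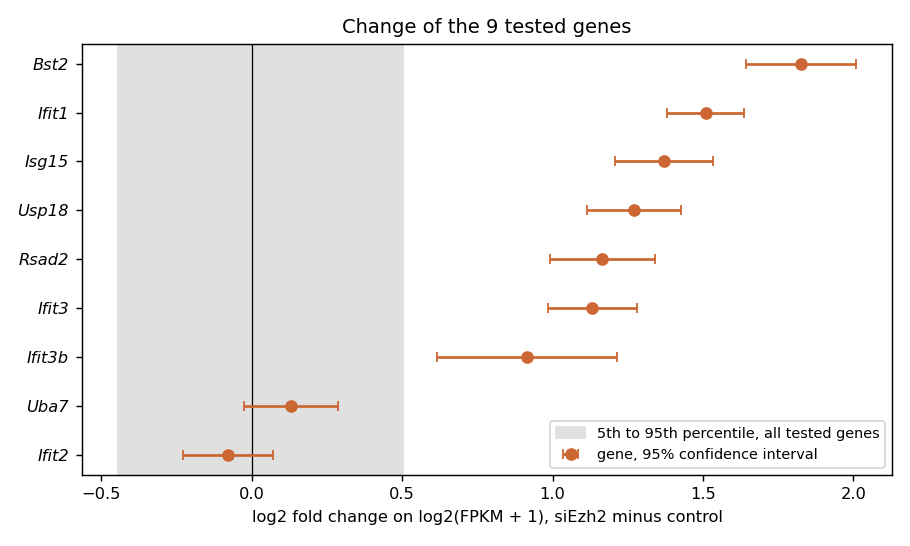
Log2 fold change on log2(FPKM + 1), siEzh2 minus control, of the 9 tested genes, with points for estimates, bars for 95% confidence intervals and a grey band for the 5th to 95th percentile of all tested genes (-0.44 to 0.50). The intervals of 7 genes lie wholly above the band, and those of Ifit2 and Uba7 include 0.

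Genes with a profile over the 6 samples most like the median of the 9 tested genes were sought among 11860 others, by the root mean square difference of centred log2(FPKM + 1) values. The nearest were Anxa8, an annexin (0.0372), Gbp3, an interferon-inducible GTPase (0.0519), Oas1a, a sensor of double-stranded RNA (0.0545), Dusp10, a phosphatase of stress kinases (0.0599), and Rtp4, a chaperone known to be interferon-induced (0.0599). The 9 genes form that median themselves. Rsad2 (0.0411) and Ifit3 (0.0484) were close to it, whereas Usp18 (0.0713), Isg15 (0.101), Ifit1 (0.159), Ifit3b (0.174), Bst2 (0.312), Uba7 (0.546) and Ifit2 (0.65) were all farther from it than the 5 outside genes. These distances describe 6 samples in 2 groups and carry no test.

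The rest of the pathway was read from further lists, beginning with the signals that start the response. Among interferon ligands, 5 of the 21 listed symbols had rows in the tables, and 16 were not analysed here. Those 5, Ifna2, Ifna4, Ifna12, Ifna13 and Ifnz, never passed 0.147 FPKM in a sample and summed to 5 reads over the control and 8 over the siEzh2 samples. That is too few to show a difference, since a count of 0 allows up to 3 reads in a sample.

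Among receptors and signal transducers, 9 of 16 tested genes were called higher, 3 lower and 4 not at all, with a median log2 fold change of 0.21. Over all tested genes 24.1% were called higher and 22.7% lower, at a median of 0.01. Irf7, a transcription factor that is itself interferon-stimulated, had 2.44, 2.34 and 2.62 FPKM in control and 7.51, 7.72 and 7.06 FPKM in siEzh2 samples (log2 fold change 1.28, adjusted p = 4.02e-05). Stat2 and Irf9, partners in the complex that binds the ISRE, rose by 0.53 and 0.42 on the log2 scale (adjusted p = 1.18e-04 and 6.67e-04). Irf3, the factor that sensors of viral nucleic acid activate, fell by 0.47 (adjusted p = 0.00350), and Ifngr1, a receptor chain for interferon gamma, fell by 0.23 (adjusted p = 0.0134). Jak1, a kinase at these receptors, passed the test on the lower side at -0.13 on the log2 scale (adjusted p = 0.0213). Leaving out control sample 1, 2 or 3 or siEzh2 sample 3 ended that call (adjusted p = 0.0590, 0.0522, 0.0666 and 0.057).

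Among the other interferon-induced antiviral effectors, 36 of 42 listed genes were tested, 23 of them called higher, 3 lower and 10 not at all, with a median log2 fold change of 0.42. Of the 36, 7 reached 1 FPKM only in siEzh2 samples and so entered through the group in which they were high. Among the other 29, 17 were called higher, 3 lower and 9 not at all, at a median of 0.35, where over all tested genes 24.1% were called higher. That share includes genes that entered through 1 group alone, so the filters differ. Oasl2 and Oas2, of the oligoadenylate synthetase family, rose by 1.49 and 1.40 on log2(FPKM + 1) (adjusted p = 3.62e-05 and 3.98e-05). Ifi44, an interferon-induced protein that entered the test only through the siEzh2 samples, rose by 0.74 (adjusted p = 5.79e-05). That scale understates the change of low genes such as Ifi44. By limma-voom on recovered reads the log2 fold changes were 1.97 (Oasl2), 1.78 (Oas2) and 1.84 (Ifi44). The 3 genes that fell were Slfn5, a schlafen protein (log2 fold change -0.42, adjusted p = 0.00146), Samhd1, which depletes the nucleotides that viruses need (-0.31, adjusted p = 0.00139), and Ifitm2, which hinders viral entry (-0.23, adjusted p = 0.0185). Ifitm2 no longer passed when control sample 2 or 3 or siEzh2 sample 3 was left out (adjusted p = 0.0586, 0.0533 and 0.0568). The ISRE core was in the window of 10 of the 32 effectors that had one, of 0 of 5 ISG15 conjugation partners, Trim25 and Ube2l6 included, and of 2 of 16 receptors and transducers. Mx1, a GTPase that traps viral nucleocapsids and was chosen after its values were seen, was below the filter. It had 0, 0 and 0.0285 FPKM in control and 0.296, 0.256 and 0.273 FPKM in siEzh2 samples, from 2 and 53 reads. Of the effectors below the filter, Mx1, Mx2, Oas3 and Slfn8 were called higher by limma when no filter was applied. Oas1g and Ifi44l were not (adjusted p = 0.142 and 0.765).

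**Figure D5:**
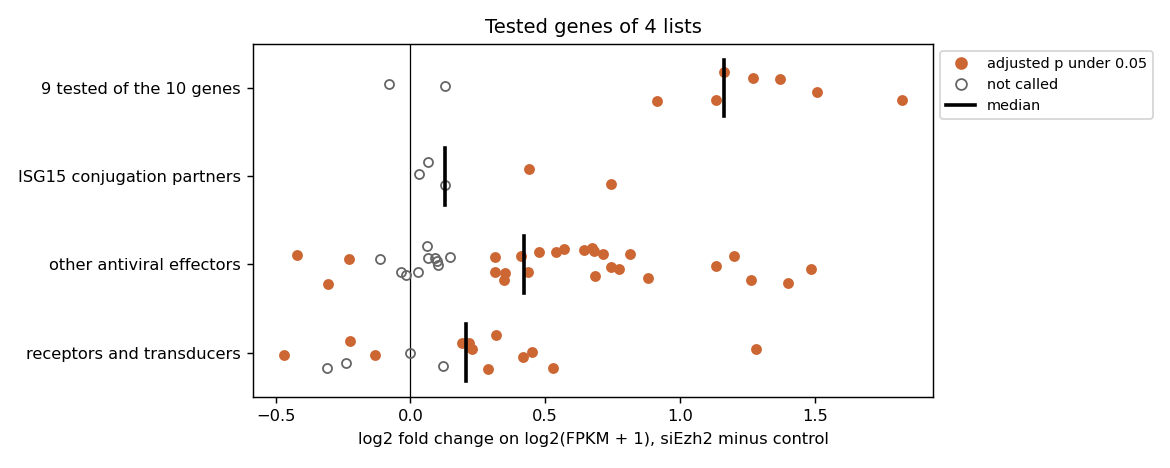
Log2 fold change on log2(FPKM + 1), siEzh2 minus control, of the tested genes in 4 lists, with filled points for an adjusted p under 0.05, open points for genes not called and a line at each median. The 9 tested genes have the highest median (1.16, the value of Rsad2), and each list also holds genes at or near 0. Rsad2 and 7 of the other antiviral effectors entered the test only through siEzh2 samples. Over genes with at least 1 FPKM in control samples the medians of these 2 lists were 1.20 and 0.35.

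Markers of other cells were read in the same samples. For macrophages and leukocytes 7 of 10 markers had rows. Of the 4 tested, 2 were called higher and 2 lower, and the summed level of the 7 was 17.2 to 20.5 FPKM in control and 14.1 to 15.2 in siEzh2 samples. The lower ones were Csf1r, a receptor of macrophages that entered the test only through the control samples, from 2.01 ± 0.309 to 0.621 ± 0.0431 FPKM (adjusted p = 3.86e-04), and Lyz2, their lysozyme, from 7.98 ± 1.119 to 3.40 ± 0.567 FPKM (adjusted p = 0.00126, SD, n = 3 each). The higher calls, of Cd68 and Cd14, were lost in several refits, among them without control sample 2 (adjusted p = 0.103 and 0.0903) and without control sample 3 (adjusted p = 0.108 and 0.0943). Ptprc, the pan-leukocyte marker, was at 0.00397 ± 0.00457 and 0.00416 ± 0.00361 FPKM and Itgam at 0.00726 ± 0.0126 and 0.0113 ± 0.0196 FPKM (SD, n = 3 each). Among 6 endothelial markers the 1 tested, Kdr, was called higher. They summed to 2.19 to 2.42 FPKM in control and 3.49 to 3.84 in siEzh2 samples. The other 5 were below 1 FPKM in both groups. Tek was at 0.332 ± 0.0815 and 0.857 ± 0.0897 FPKM and Vwf at 0.417 ± 0.0524 and 0.932 ± 0.109 FPKM (SD, n = 3 each), higher without overlap in siEzh2 samples and called when no filter was applied (adjusted p = 0.00453 and 0.00364). Pecam1 was at 0.170 ± 0.0640 and 0.0789 ± 0.0134 FPKM, lower without overlap in siEzh2 samples. Cdh5 was at 0.223 ± 0.0997 and 0.196 ± 0.0159 FPKM and Tie1 at 0.0146 ± 0.0127 and 0.00807 ± 0.00701 FPKM, both overlapping. Pecam1, Cdh5 and Tie1 were not called without the filter. The 6 fibroblast markers summed to 532 to 573 FPKM in control and 400.6 to 443.6 in siEzh2 samples. Col1a1 made up most of that sum, with means of 486 FPKM in control and 363 FPKM in siEzh2 samples. Of the 5 tested, 1 was called higher (Pdgfra), 3 lower (Col1a1, Dpt and Lum), and Dcn was not called. The 7 smooth muscle markers summed to 718 to 747 FPKM in control and 543 to 580 FPKM in siEzh2 samples. Acta2 made up most of that sum, with means of 699 FPKM in control and 537 FPKM in siEzh2 samples. Of the 6 tested, 5 were called lower and Cnn1 was not called. Over all tested genes 24.1% were called higher and 22.7% lower. The part of cell composition in the rise of the antiviral genes was not tested.

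Nearest neighbours were read on both sides of the genes outside the Ifit cluster as well. Agrn, agrin of the basement membrane, 1935 bases from Isg15, rose by 0.66 on the log2 scale (adjusted p = 1.30e-04), whereas AW011738 on the other side was below the filter at 0.290 ± 0.0549 and 0.312 ± 0.0189 FPKM (SD, n = 3 each). The neighbours of Herc6 fell, Ppm1k, a mitochondrial phosphatase, with a log2 fold change of -0.48 and Pyurf with one of -0.32 (adjusted p = 7.06e-04 and 0.00610). Inka1, 162 bases from Uba7, was not called (-0.24, adjusted p = 0.167). The genes next to Usp18 were below the filter, Tuba8 at 0.261 ± 0.122 and 0.520 ± 0.0909 FPKM and Slc6a13 at 0.136 ± 0.0646 and 0.0750 ± 0.0339 FPKM in control and siEzh2 samples (SD, n = 3 each). Below it too were Traip next to Uba7 (0.848 ± 0.152 and 0.971 ± 0.109 FPKM) and Slc16a12 next to Ifit1 (0.0174 ± 0.0201 and 0.0237 ± 0.0213 FPKM). Ccdc194 next to Bst2 was at 0 in all control samples and at 0.0654 ± 0.0568 FPKM in siEzh2 samples.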

How the data were processed

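Stranded TruSeq mRNA libraries of 6 aortic smooth muscle cell samples were analysed, 3 siEzh2 and 3 control. The authors deposited 1 table of FPKM per sample, named so per the file headers. Cufflinks, HTSeq, HISAT2, Trimmomatic and mm10 appear in the submitters' processing notes, without versions, roles or order. A count test had no counts to use, so limma 3.58.1 (R 4.3.3, trend and robust off) was run on log2(FPKM + 1) over genes whose mean reached 1 FPKM in either group, with Benjamini-Hochberg adjustment. A check on simulated data beforehand asked whether large changes were called and calls of changed genes had the right sign. It set no limit on false calls. The rest used Python 3.11.15 with scipy 1.17.1, numpy 2.4.6, pandas 2.3.3 and matplotlib 3.10.9. Of 27502 identifiers, 27434 were in GENCODE M21 (mm10). FPKM times exon length moved in steps, from which reads were recovered, with 98.4% to 98.5% of low values whole within 0.02. A count of 3 reads equalled 0.16 to 0.187 CPM, a limit for counting error only. No pair of samples agreed within counting noise (chi-square per degree of freedom 2.13 to 3.29 within groups).

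The genes, lists and tests were chosen with earlier results of these data known. Named were the 10 genes, Ezh2, the 3 smallest p-values and every gene called against the median in each pathway list, the nearest protein-coding neighbours and the 5 nearest profiles. Marker genes named beside them were chosen after their values were seen. Alternatives were 2 scalings, a pseudocount of 0.1, no filter, a 5 FPKM filter, a replicate block, trend and robust on, limma-voom on recovered reads, and leaving out each sample.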

Additional observations from a re-analysis of the deposited data

How the results depend on the processing

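The log2 fold changes of the 9 tested genes and Ezh2 kept their direction and their side of the threshold in all 137 refits, which covered 14 alternatives. Genes below a filter dropped out of that fit, as Rsad2, Uba7 and Ezh2 did at 5 FPKM. Of the 10 genes, 7 were called higher in each alternative, except 6 at 5 FPKM, where Rsad2 was not tested. The log2 fold change of Ifit2 ranged from -0.13 to -0.03 (adjusted p = 0.125 to 0.735) and that of Uba7 from 0.06 to 0.2 (adjusted p = 0.109 to 0.296). Rsad2 ranged from 1.11 to 3.07, since its size depends on the pseudocount. With the 5 FPKM filter 11 other antiviral effectors were called higher and 0 of the other IFIT genes, because fewer genes were tested. With median-ratio scaling, with trend and robust on and with limma-voom on recovered reads, 5 receptors and transducers were called lower in place of 3, and the cause was not tested. With the replicate number as a block 7 of the 10 genes were called higher, and over all genes 2564 higher and 2385 lower, against 2866 and 2695. The block ended the call of Jak1 (adjusted p = 0.0599). Deviations of same-numbered samples correlated at 0.02, 0.07 and 0.04, too low to take the numbers as pairs, though each sample correlated best with its own number, a hint from the data and not from the design. With 3 samples per group and 47 control reads for Rsad2, small changes of the lowest genes were not detectable.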
